A study of Mus musculus with 9 samples.

Results

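The genes described are 10 members of the Wnt pathway, namely Wnt5a, Fzd1, Fzd2, Sfrp1, Sfrp2, Dkk3, Ctnnb1, Tcf7l2, Lef1 and Axin2. They were chosen by gene symbol and not by a cut on measured values, although earlier results of these data were known. All 10 were found among the 56953 genes of the deposited table, each on a single line. Their messages were measured in 9 polyA RNA libraries made from fibroblasts of adult male mouse hearts (wildtype, C57BL/6N). Each culture received 1 of 3 adenoviruses, of which Ad-GFP encodes the marker GFP and served as the control, Ad-JP2 encodes junctophilin-2 (JP2), and Ad-shJP2 encodes a hairpin RNA directed at JP2. Cells were collected at 72 h, with 3 libraries per virus, and none of the 9 was from an uninfected culture. The hearts had been digested with enzymes and cardiomyocytes had been left to settle out, so the cultures could still hold other attached cell types.

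Wnt proteins are secreted ligands that bind frizzled receptors together with the coreceptors Lrp5 and Lrp6. In the canonical branch, binding stops a destruction complex built on axin, Apc and the kinases GSK3 and CK1 from degrading beta-catenin, the product of Ctnnb1, which then enters the nucleus and acts with TCF and LEF factors. Other branches, for which Wnt5a is the best known ligand, signal without beta-catenin, and secreted proteins of the SFRP and dickkopf families modulate the ligands or the coreceptors. In the heart the pathway is known for its roles in development and in the scar tissue that fibroblasts form after injury.

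Values were TPM, the share of a transcript among all transcripts of a library after scaling for gene length, and they can be compared between genes. Differences were tested on log2(TPM + 1) with limma over all 14215 genes that reached 1 TPM in at least 3 libraries, and a call is an adjusted p under 0.05. On this scale the change of low genes is understated. Fold ratios are ratios of group mean TPM. Of the 10 genes 8 were tested, and Lef1 and Axin2 were below that level in every library. Sfrp2 reached 1 TPM in 5 libraries, none of them labelled Ad-shJP2, so it entered the test only through the groups in which it was higher. The other 7 were above 1 TPM in all 9 libraries. The identifiers in the deposited table are ENSMUSG00000021994 (Wnt5a), ENSMUSG00000044674 (Fzd1), ENSMUSG00000050288 (Fzd2), ENSMUSG00000031548 (Sfrp1), ENSMUSG00000027996 (Sfrp2), ENSMUSG00000030772 (Dkk3), ENSMUSG00000006932 (Ctnnb1), ENSMUSG00000024985 (Tcf7l2), ENSMUSG00000027985 (Lef1) and ENSMUSG00000000142 (Axin2).

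The targeted gene Jph2, whose product tethers internal calcium stores to the cell surface, was at 129 ± 2.44 TPM with Ad-GFP, 688 ± 49.9 with Ad-JP2 and 119.5 ± 3.09 with Ad-shJP2 (mean ± SD, n = 3). Its difference in the libraries labelled Ad-shJP2 did not pass (log2 difference -0.11, limma adjusted p = 0.0724) but passed with quantile normalization (-0.13, adjusted p = 0.0243). Library values of Jph2 did not overlap there (116.5 to 122.7 TPM against 127.5 to 132.1 with Ad-GFP), as for 65.3% of all genes. The label Ad-shJP2 is therefore used here as the name of a virus and not as a measured loss of the message. Estimated depth was 36.9 to 45.6 M reads (megareads) in the Ad-GFP and Ad-JP2 libraries and 21.2 to 33.3 M reads in those labelled Ad-shJP2. Nothing in the labels says that replicates were separate cultures, so p-values measure the spread between these libraries, which may be technical. Summed levels of 10 fibroblast markers were 11300 to 11400 TPM with Ad-GFP, 11100 to 11900 with Ad-JP2 and 7490 to 7730 with Ad-shJP2, with 9 of the 10 lower and Thy1 higher in the last group. Those of 10 macrophage and leukocyte markers were 2950 to 2990, 2710 to 2760 and 3430 to 3480 TPM, with 6 higher and 3 lower with Ad-shJP2. Sums over 8 pericyte and smooth muscle markers were 88.9 to 91.5, 88.9 to 94.5 and 47.5 to 50.5 TPM, with 3 of 4 tested lower with Ad-shJP2. Those over 8 epicardial markers were 95.6 to 99.3, 96.8 to 103 and 78.3 to 81.2 TPM, with 6 of 7 tested lower and 1 higher. Those over 8 cardiomyocyte markers were 31.4 to 33.4, 26.8 to 32.9 and 20.4 to 22.9 TPM, with both tested genes lower. The 8 endothelial markers summed to 35.8 to 48 TPM over all libraries, and Ttn, Kcnj8 and Abcc9 were below 0.1 TPM throughout. The 5 Schwann and neural markers summed to at most 1.81 TPM. With Ad-GFP, Vim (7263 TPM) held most of the fibroblast sum, Lyz2 (1730) of the macrophage sum and Pdgfrb (76.5) of the pericyte sum. Aldh1a2 (62.6) held most of the epicardial sum and Tnnt2 (27.3) of the cardiomyocyte sum. These sums therefore mostly follow 1 gene each. Lum, Lrrn4, Msln and Ptprc, all counted as lower, were below 1 TPM in every library labelled Ad-shJP2. They entered the test only through other groups, in which they were higher. Over all genes tested, 37.7% were lower and 21.8% higher with Ad-shJP2 than with Ad-GFP. The part of all these markers in the results below was not tested. In RNA from whole cultures, fewer cells of a type and less RNA per cell cannot be told apart.

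RefSeq promoter windows (GRCm38.p6, 250 bases before to 50 after a gene's start) were given for 6 of the 10 genes, namely Ctnnb1, Tcf7l2, Lef1, Axin2, Fzd1 and Sfrp2. The 4 of these genes that passed a test in the data are shown, 5′ to 3′ on the strand of the gene, because Ctnnb1 rose while Tcf7l2, Fzd1 and Sfrp2 fell in the same libraries. Ctnnb1 and Tcf7l2 have 2 windows each and the more upstream is printed. Capitals mark GC boxes (GGGCGG) and CCAAT boxes (CCAAT) on either strand, and runs of capitals in Tcf7l2 are overlapping or adjoining GC boxes.
Ctnnb1, chr9:120933150-120933449, + strand: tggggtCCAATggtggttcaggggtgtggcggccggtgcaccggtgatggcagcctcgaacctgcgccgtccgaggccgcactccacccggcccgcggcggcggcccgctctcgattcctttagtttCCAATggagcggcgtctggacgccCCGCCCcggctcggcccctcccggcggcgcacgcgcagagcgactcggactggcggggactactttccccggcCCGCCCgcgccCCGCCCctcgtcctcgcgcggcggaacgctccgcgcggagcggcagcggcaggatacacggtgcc
Tcf7l2, chr19:55741560-55741859, + strand: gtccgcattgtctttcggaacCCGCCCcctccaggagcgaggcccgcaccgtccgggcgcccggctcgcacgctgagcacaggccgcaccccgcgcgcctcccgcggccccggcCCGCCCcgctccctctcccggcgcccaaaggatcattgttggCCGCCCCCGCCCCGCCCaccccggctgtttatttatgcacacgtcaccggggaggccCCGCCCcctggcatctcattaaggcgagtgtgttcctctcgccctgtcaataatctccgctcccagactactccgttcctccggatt
Fzd1, chr5:4758167-4758466, - strand: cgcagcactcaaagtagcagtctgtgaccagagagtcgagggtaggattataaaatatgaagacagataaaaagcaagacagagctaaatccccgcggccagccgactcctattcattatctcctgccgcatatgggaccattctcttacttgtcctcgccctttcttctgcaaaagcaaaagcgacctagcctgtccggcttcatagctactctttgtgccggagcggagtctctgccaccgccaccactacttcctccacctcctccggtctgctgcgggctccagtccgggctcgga
Sfrp2, chr3:83766071-83766370, + strand: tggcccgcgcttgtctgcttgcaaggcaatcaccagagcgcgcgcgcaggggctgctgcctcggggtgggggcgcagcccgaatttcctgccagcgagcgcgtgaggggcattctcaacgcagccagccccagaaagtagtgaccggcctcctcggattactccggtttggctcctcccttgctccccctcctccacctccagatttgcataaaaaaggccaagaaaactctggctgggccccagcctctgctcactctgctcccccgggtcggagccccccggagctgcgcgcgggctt

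The Ctnnb1 window holds 3 GC boxes and 2 CCAAT boxes, and that of Tcf7l2 holds 6 GC boxes and no CCAAT box. These counts depend on the window, since the second window of Ctnnb1 has 3 GC boxes and no CCAAT box and that of Tcf7l2 has neither. Neither motif occurs in the windows of Fzd1 and Sfrp2. Of all 32851 promoter windows in the table, 35.7% hold a GC box and 37.4% a CCAAT box. The TCF and LEF core CTTTGAT, searched on both strands, was in none of the 11 windows of the 6 genes and in 3.73% of all windows. That statement is about these letters in these 300 bases only. GC content was 75.3% for the Ctnnb1 window, 70.0% for Tcf7l2, 66.0% for Sfrp2 and 54% for Fzd1.

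The 10 genes spanned a wide range of levels. Ctnnb1 was the most abundant at 299.7 TPM with Ad-GFP, a level above that of 96.1% of the genes tested. Sfrp1 (69.4 TPM) and Fzd2 (47.1 TPM) came next, followed by Wnt5a (12) and Fzd1 (10.99), whose library values overlapped. Tcf7l2 (4.25), Dkk3 (3.47) and Sfrp2 (1.67) were low, and Lef1 (0.149) and Axin2 (0.0503) were close to the limit of counting.

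**Figure D1:**
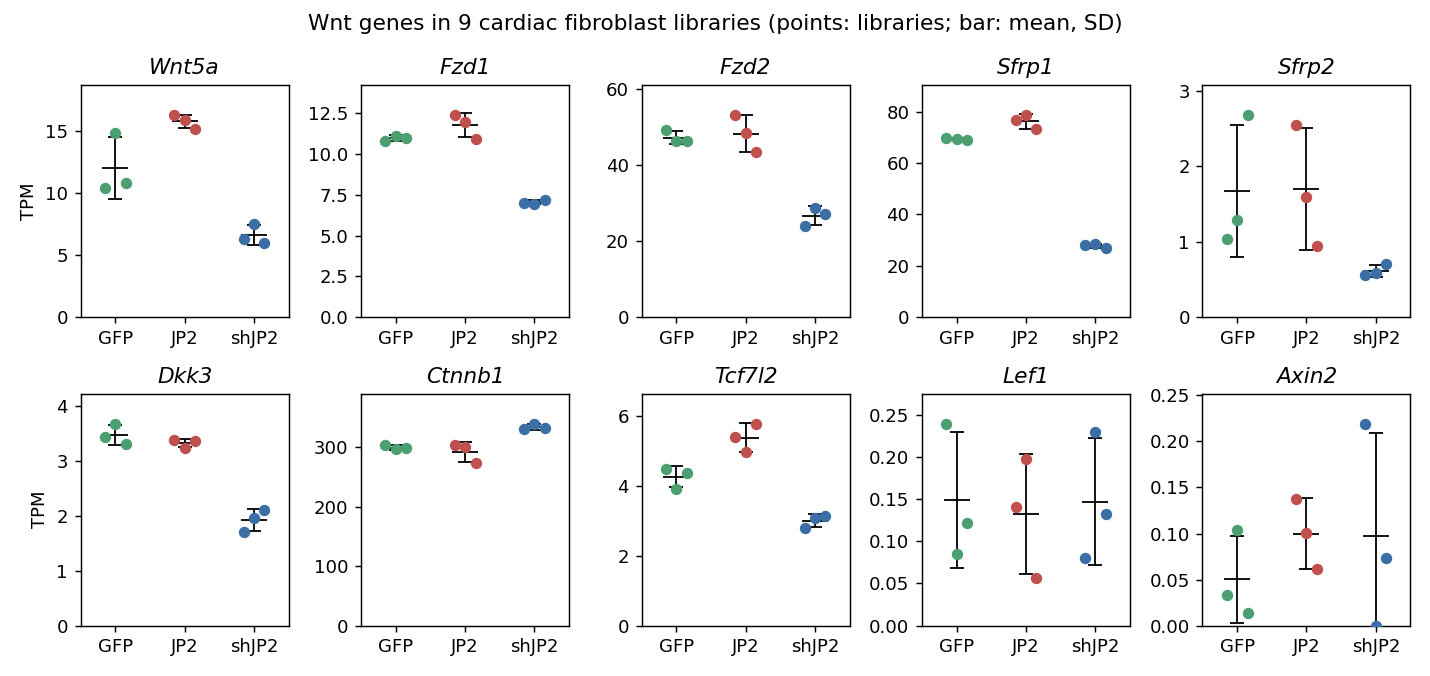
TPM (linear axes from 0) of the 10 Wnt genes in each of the 9 libraries, by virus, with points for libraries and bars for the group mean and SD. For Wnt5a, Fzd1, Fzd2, Sfrp1, Sfrp2, Dkk3 and Tcf7l2 the 3 libraries labelled Ad-shJP2 lie below all 6 others, for Ctnnb1 they lie above, and for Lef1 and Axin2 the groups overlap.

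With the hairpin virus, the ligand, both receptors, the secreted modulators and Tcf7l2 were lower than with the GFP virus, while Ctnnb1 was slightly higher. On the log2 scale the largest of the 8 differences was that of Sfrp1, which fell 2.5-fold, and the smallest was that of Ctnnb1, which rose by 11.6%. All 8 genes tested passed in this comparison, 1 higher and 7 lower, and none of the 8 had overlapping library values. The 7 include Sfrp2, which entered the test only through the groups in which it was higher. In the same comparison 59.4% of all 14215 genes passed, 21.8% higher and 37.7% lower, and 65.3% had library values that did not overlap. The median log2 difference was -0.65 over the 8 genes and -0.11 over all genes tested. By the F-test over the 3 groups, which 63.7% of all genes passed, 7 of the 8 passed and Sfrp2 did not (limma adjusted p = 0.0602).

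Among the ligands, Wnt5a stood at 10.3, 14.8 and 10.8 TPM in the Ad-GFP libraries, at 16.2, 15.8 and 15.2 with Ad-JP2, and at 6.26, 7.51 and 5.96 with Ad-shJP2. The order of the groups was Ad-JP2, Ad-GFP and Ad-shJP2 with no overlap, although Ad-GFP replicate 2 lay just below the lowest Ad-JP2 library. Against Ad-GFP, Wnt5a fell 1.82-fold with Ad-shJP2 (log2 difference -0.77, SE 0.13, limma adjusted p = 7.2e-04). This call ended after correction for GC content and length (log2 difference -0.24, adjusted p = 0.14), and the Wnt5a transcript has a GC content of 45.2%. With Ad-JP2 it was 1.31-fold above Ad-GFP, a difference that did not pass (log2 difference 0.38, 95% interval 0.09 to 0.67, adjusted p = 0.0881). Without Ad-GFP replicate 2 that difference was 0.53 and passed (adjusted p = 0.008), but it did not pass on leaving out any other library. After GC and length correction it was 0.03 (adjusted p = 0.909).

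Fzd1 and Fzd2 encode closely related seven-pass receptors for Wnt ligands. Fzd2 was at 49.0, 46.2 and 46.2 TPM with Ad-GFP, 53.0, 48.3 and 43.4 with Ad-JP2, and 23.9, 28.7 and 27.1 with Ad-shJP2. The Ad-GFP and Ad-JP2 libraries overlapped, and the highest Ad-shJP2 library was well below both. The fall with Ad-shJP2 was 1.77-fold (log2 difference -0.81, SE 0.08, limma adjusted p = 3.2e-05), and it was -0.67 after GC and length correction (adjusted p = 5.2e-05). Fzd1 was at 10.8, 11.1 and 11.01 TPM with Ad-GFP, 12.4, 11.97 and 10.96 with Ad-JP2, and 6.99, 6.95 and 7.18 with Ad-shJP2. It fell 1.56-fold with Ad-shJP2 (log2 difference -0.58, SE 0.06, adjusted p = 2.9e-05; -0.39 after correction, adjusted p = 1.9e-04). With Ad-JP2 neither receptor passed, with log2 differences from Ad-GFP of 0.09 for Fzd1 (95% interval -0.04 to 0.22) and 0.03 for Fzd2 (-0.16 to 0.22), and both were slightly below 0 with quantile normalization and after GC and length correction. The ratio of Fzd2 to Fzd1 was 4.29 ± 0.209 with Ad-GFP, 4.09 ± 0.17 with Ad-JP2 and 3.78 ± 0.358 with Ad-shJP2 (SD, n = 3).

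Sfrp1 encodes a secreted protein with a frizzled-like cysteine-rich domain that can bind Wnt ligands. Its level was 69.8, 69.4 and 69.0 TPM with Ad-GFP, 76.9, 78.6 and 73.1 with Ad-JP2, and 27.9, 28.4 and 26.9 with Ad-shJP2. The 3 groups were separate, with a wide gap below the Ad-GFP libraries and a narrow one above them. Relative to Ad-GFP the level under Ad-shJP2 was 60.1% lower (log2 difference -1.29, SE 0.04, limma adjusted p = 1.3e-08), and only 3.07% of the genes tested had a lower difference. After GC and length correction the difference was -0.99 (adjusted p = 4.0e-08). With Ad-JP2 it was 9.75% higher (log2 difference 0.13, SE 0.04, adjusted p = 0.0457). That call was lost under 8 of 10 other settings and on leaving out any of 6 of the 9 libraries, and the difference was -0.02 after GC and length correction.

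Sfrp2 and Dkk3 are further secreted modulators, Dkk3 being the divergent member of the dickkopf family. Sfrp2 stood at 1.04, 1.295 and 2.68 TPM with Ad-GFP, 2.56, 1.60 and 0.944 with Ad-JP2, and 0.556, 0.578 and 0.703 with Ad-shJP2. Spread within the first 2 groups was wide, since 1 library in each was near or above 2.5 TPM. Against Ad-GFP it fell 2.73-fold with Ad-shJP2 (log2 difference -0.68, SE 0.26, limma adjusted p = 0.0466), a call lost under 5 of 9 other settings and without any of 6 libraries. Without Ad-GFP replicate 3, its highest library, the difference was -0.43 (adjusted p = 0.154). Dkk3 was at 3.43, 3.68 and 3.31 TPM with Ad-GFP, 3.38, 3.24 and 3.36 with Ad-JP2, and 1.71, 1.97 and 2.11 with Ad-shJP2. It fell 1.80-fold with Ad-shJP2 (log2 difference -0.61, SE 0.08, adjusted p = 1.9e-04; -0.41 after correction, adjusted p = 0.00243) and did not pass with Ad-JP2 (-0.05, 95% interval -0.24 to 0.14).

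Ctnnb1, which encodes beta-catenin, the transducer of the canonical branch and a component of cell junctions, moved the other way. Its TPM was 304, 297 and 298 with Ad-GFP, 304, 301 and 273 with Ad-JP2, and 331, 339 and 333 with Ad-shJP2. The Ad-GFP and Ad-JP2 libraries overlapped and the Ad-shJP2 libraries were above both. The rise over Ad-GFP was small (log2 difference 0.16, SE 0.04, limma adjusted p = 0.00635) and was 0.22 after GC and length correction (adjusted p = 4.4e-04), while median-of-ratios scaling gave 0.27 (adjusted p = 8.3e-05). It was called under all 10 other settings and without any single library. With Ad-JP2 the log2 difference was -0.04 (95% interval -0.12 to 0.05).

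Tcf7l2 and Lef1 encode DNA-binding partners of beta-catenin. Tcf7l2 was at 4.48, 3.91 and 4.37 TPM with Ad-GFP, 5.40, 4.96 and 5.76 with Ad-JP2, and 2.80, 3.08 and 3.12 with Ad-shJP2, so that the groups were ordered without overlap. It fell 1.42-fold with Ad-shJP2 (log2 difference -0.39, SE 0.08, limma adjusted p = 0.00282), a call that ended after GC and length correction (-0.10, adjusted p = 0.327) and with quantile normalization (-0.12, adjusted p = 0.242). The transcript has a GC content of 47.4%. With Ad-JP2 it was 1.26-fold above Ad-GFP and did not pass (log2 difference 0.28, 95% interval 0.09 to 0.47, adjusted p = 0.0539). With no mean-variance trend in the model the same difference passed (adjusted p = 0.0266). It did not pass under the 8 other settings or on leaving out any 1 library. It was 0.12 after GC and length correction (adjusted p = 0.405) and 0.13 with quantile normalization (adjusted p = 0.297).

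Lef1 was between 0.057 and 0.239 TPM in the 9 libraries, about 4 to 25 reads, and its groups overlapped. Axin2, a negative regulator of the pathway that is itself a well-known target of beta-catenin, was between 0 and 0.219 TPM, about 0 to 18 reads. It was at 0 in Ad-shJP2 replicate 2, where 3 reads would have given 0.026 TPM, and at 0.219 TPM in Ad-shJP2 replicate 1. Groups of both genes overlapped, and at these read numbers no difference between groups could be seen. Read numbers are estimates from the deposited effective length and cover counting error only.

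**Figure D2:**
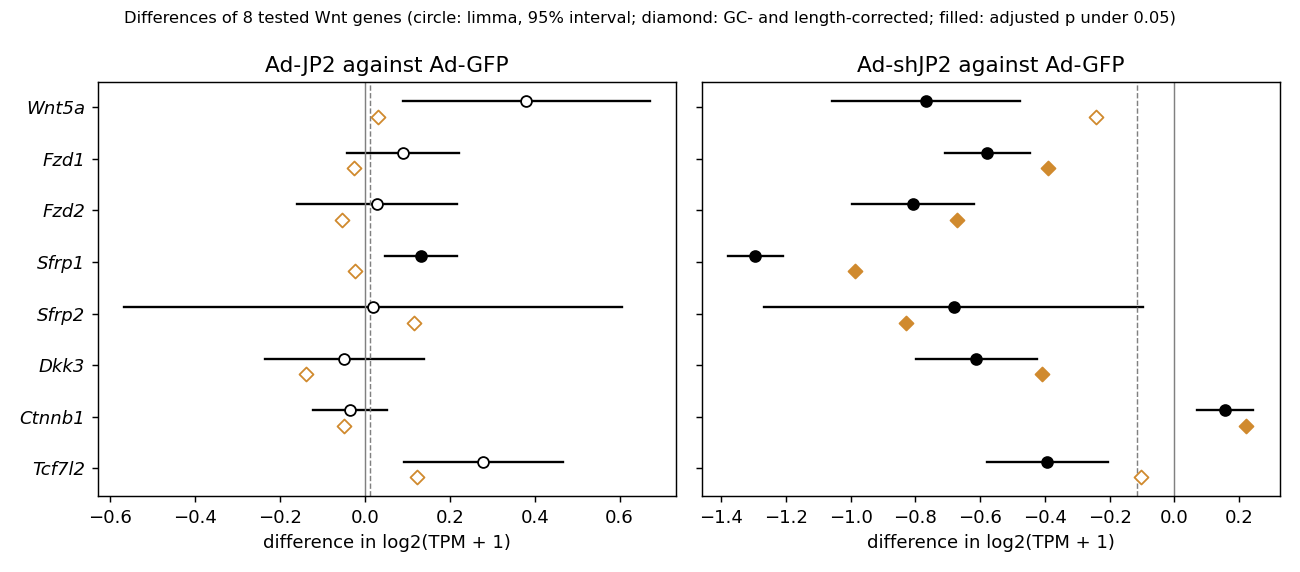
Difference in log2(TPM + 1) from Ad-GFP for the 8 genes tested, with Ad-JP2 (left) and Ad-shJP2 (right). Circles are limma estimates with 95% intervals, diamonds are values after GC and length correction, filled symbols have an adjusted p under 0.05, and the dashed line is the median of all genes tested. With Ad-shJP2 all 8 circles are filled, and the diamonds of Wnt5a and Tcf7l2 are open.

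With the JP2 virus 1 of the 8 genes tested passed against Ad-GFP, which was Sfrp1, and the percentage that passed over all 14215 genes was 15 (13.4% higher and 1.64% lower). The difference was a median of 0.06 over the 8 genes and 0.01 over all genes. Library values did not overlap for Wnt5a, Sfrp1 and Tcf7l2, all higher with Ad-JP2, against 32.2% of all genes. After GC and length correction 0 of the 8 passed by limma, where 14.3% of 14025 genes did (6.48% higher and 7.78% lower).

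Set directly against the libraries labelled Ad-shJP2, those of Ad-JP2 had 7 of the 8 genes higher and Ctnnb1 lower (64.4% of all genes passed, 40.3% higher and 24.1% lower). Here too Sfrp2 entered the test only through the groups in which it was higher. Sfrp1 was 2.75-fold, Sfrp2 2.77-fold and Wnt5a 2.39-fold higher, while Fzd2 was 1.81-fold, Tcf7l2 1.79-fold, Dkk3 1.72-fold and Fzd1 1.67-fold higher. Ctnnb1 was 12.5% lower (log2 difference -0.19, limma adjusted p = 0.00174). After correction 6 were higher and Ctnnb1 lower, with 62.2% of 14025 genes called (29% higher and 33.2% lower), and the Wnt5a call ended (log2 difference 0.27, limma adjusted p = 0.0928). The Sfrp2 call ended with no filter (limma adjusted p = 0.0831), with median-of-ratios scaling (0.0516), with quantile normalization (0.291), with the replicate number as a block (0.0705) and on leaving out Ad-JP2 replicate 1 or 2 or any 1 of the 3 libraries labelled Ad-shJP2 (0.0661 to 0.134). The Tcf7l2 call ended with the block and the correction together (adjusted p = 0.0596), and that of Dkk3 with quantile normalization (adjusted p = 0.116). This comparison uses the same Ad-JP2 and Ad-shJP2 libraries as the 2 others and adds no independent samples.

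GC content moved with the differences of all genes, and is given here because the Ad-shJP2 calls of Wnt5a and Tcf7l2 ended with a joint correction for GC content and length, whose parts were not separated. Over tested genes with a GC content of at most 42% the median log2 difference of Ad-shJP2 from Ad-GFP was -0.47, and over those between 54% and 58% it was 0.04. It was -0.37 between 42% and 46%, where Wnt5a lies, and -0.19 between 46% and 50%, where Tcf7l2 lies. With Ad-JP2 the bins of at most 42% and of 54% to 58% stood at 0.37 and -0.03, and those of Wnt5a and Tcf7l2 at 0.18 and 0.04. The 8 genes had transcripts of 45.2% (Wnt5a) to 60.7% (Sfrp2) GC. After correction 1 was higher and 5 lower with Ad-shJP2, where 56% of 14025 genes were called, 28.7% higher and 27.3% lower. Median-of-ratios scaling moved the median of all genes in this comparison from -0.11 to -0.02 and quantile normalization moved it to 0.02. Among all genes called, 36.6% were higher with Ad-shJP2 on TPM as deposited, 49% with median-of-ratios scaling, 52.4% with quantile normalization and 51.2% after GC and length correction. In the comparison of Ad-JP2 with Ad-GFP that share went from 89.1% to 81.9%, 66.2% and 45.4%, and in that of Ad-JP2 with Ad-shJP2 from 62.6% to 50.5%, 42% and 46.7%.

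The families to which the 10 genes belong were then summed in each library. The 10 frizzled genes together gave 113 ± 2.93 TPM with Ad-GFP, 119 ± 10.2 with Ad-JP2 and 59.9 ± 2.03 with Ad-shJP2 (SD, n = 3), and Fzd2 made up 41.7%, 40.4% and 44.3% of these sums. The 7 frizzled genes tested all fell with Ad-shJP2, where 37.7% of all genes were called lower. All 7 differences stayed below 0 after GC and length correction, quantile normalization or median-of-ratios scaling. Fzd5 lost its call with the correction (-0.12, limma adjusted p = 0.14) and with quantile normalization (-0.18, adjusted p = 0.0553). Fzd6 went from 9.89 to 2.36 TPM and Fzd4 from 8.88 to 2.87, so their shares of the family dropped from 8.75% to 3.94% and from 7.85% to 4.79%, with no overlap of library values. The share of Fzd1 was 9.73% with Ad-GFP and 11.7% with Ad-shJP2, also without overlap.

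The 19 Wnt ligand genes summed to 21.0 ± 2.69 TPM with Ad-GFP, 24.7 ± 1.91 with Ad-JP2 and 16.6 ± 0.89 with Ad-shJP2. Wnt5a held 53.3% to 61.9% of this sum with Ad-GFP, 61.2% to 66.7% with Ad-JP2 and 37.8% to 42.8% with Ad-shJP2. Wnt5b, its paralog, rose from 0.996 to 1.88 TPM with Ad-shJP2 (log2 difference 0.53, limma adjusted p = 0.00243), and its share of the ligands went from 4.81% to 11.3%. It was above 1 TPM in the 3 libraries labelled Ad-shJP2 and in 1 Ad-GFP and 1 Ad-JP2 library, so it entered the test only through the group in which it was high. Wnt9a, the second most abundant ligand with Ad-GFP, fell from 4.16 to 3.25 TPM (log2 difference -0.28, adjusted p = 0.0133 by limma). That call ended after GC and length correction (-0.18), with quantile normalization (-0.01) and under median-of-ratios scaling (-0.19), and its share was 20% and 19.6%. Wnt11 did not pass (2.94 and 3.79 TPM, limma adjusted p = 0.149), yet its share went from 14.1% to 22.9%. With quantile normalization Wnt11 was called higher. The Wnt5a to Wnt5b ratio was 12.1 ± 2.86 with Ad-GFP, 18.8 ± 3.85 with Ad-JP2 and 3.50 ± 0.275 with Ad-shJP2 (SD, n = 3). An exact permutation test of 3 against 3 gave p = 0.1 for Ad-shJP2 against Ad-GFP, the smallest it can give. Transcripts of Wnt5b and Wnt11 have a GC content of 59.6% and 63.2%, against 45.2% for Wnt5a, and the part of this in the shares was not tested.

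Among the 5 secreted frizzled-related genes, Frzb and Sfrp1 held nearly all of the message. Frzb, another Wnt-binding inhibitor, was at 154 TPM with Ad-GFP and 106 with Ad-shJP2 (log2 difference -0.54, limma adjusted p = 9.1e-07). Since Sfrp1 fell further, the ratio of Frzb to Sfrp1 went from 2.22 ± 0.0435 with Ad-GFP to 3.83 ± 0.266 with Ad-shJP2, and it was 2.14 ± 0.0852 with Ad-JP2 (SD, n = 3). Dkk3 held 88.3%, 82.6% and 83.9% of the dickkopf message with Ad-GFP, Ad-JP2 and Ad-shJP2. Of the TCF and LEF factors, Tcf7l1 was the most abundant (25.0 TPM with Ad-GFP), with 83.6% of the family against 14.2% for Tcf7l2. The share of Tcf7l2 was 17.2% with Ad-JP2, with library values above those of Ad-GFP, and 12.4% with Ad-shJP2, where they met those of Ad-GFP at 13.1%.

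**Figure D3:**
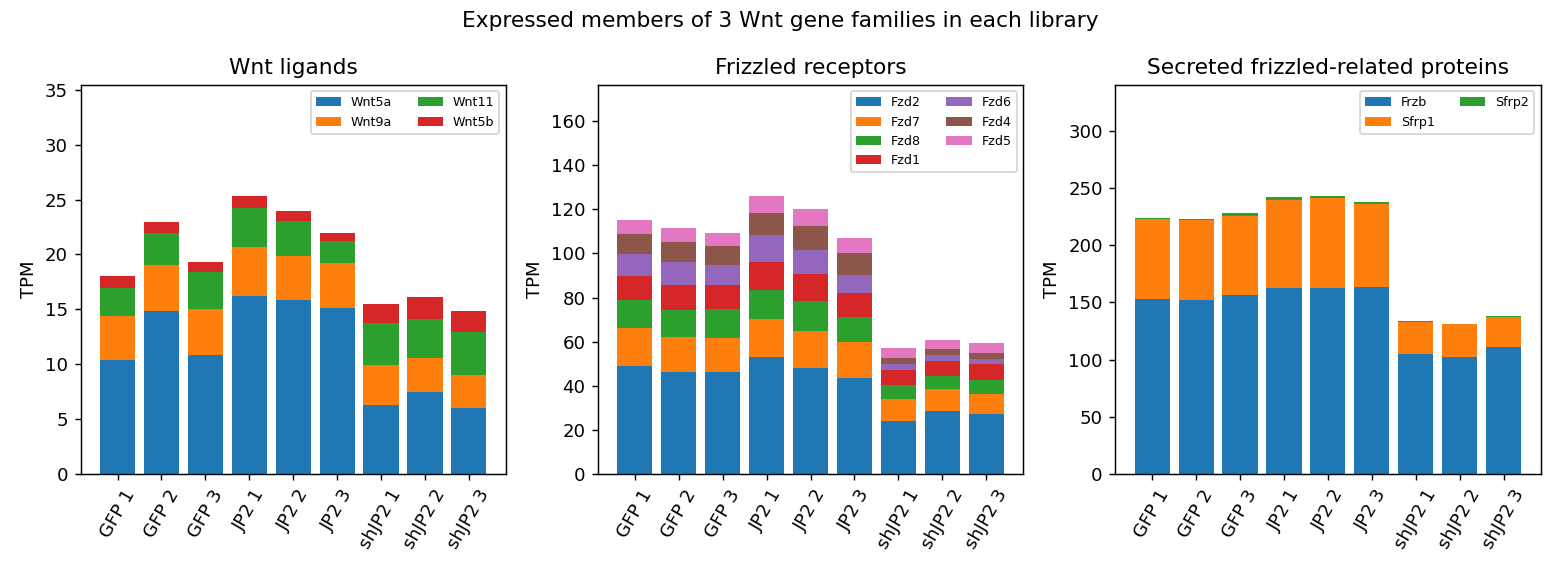
Stacked TPM (linear axis from 0) of the expressed Wnt ligands, frizzled receptors and secreted frizzled-related genes in each of the 9 libraries, 1 bar per library and 1 colour per gene. Frizzled bars are about as high with Ad-GFP as with Ad-JP2 and lower in all 3 libraries labelled Ad-shJP2, and Wnt5a is a smaller part of the ligand bars there.

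Other genes of the pathway, 108 in 8 lists, were counted beside the 10, and 67 of them were tested. Between Ad-shJP2 and Ad-GFP, 8 were higher and 43 lower (64.2% of the 67 lower, against 37.7% of all genes), with a median log2 difference of -0.44. After GC and length correction these counts were 12 and 33, where 28.7% of 14025 genes were higher and 27.3% lower, and the median was -0.21. With median-of-ratios scaling they were 8 and 35, and with quantile normalization 10 and 34. The 43 lower genes include Ror1 and Amer1. Both were below 1 TPM in all libraries labelled Ad-shJP2 and entered the test only through the other groups.

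Receptors and coreceptors had 8 lower and 1 higher of 11 tested, against 37.7% lower and 21.8% higher of all genes. After GC and length correction 7 were lower and 3 higher, where 27.3% of 14025 genes were lower and 28.7% higher. The median log2 difference of this list went from -0.84 to -0.36. The coreceptor Lrp6 went from 4.85 to 1.96 TPM (log2 difference -0.98, limma adjusted p = 7.6e-06), while Lrp5 did not pass (40.2 and 37.0 TPM, log2 difference -0.12, adjusted p = 0.0785) and was called higher after correction (0.11, adjusted p = 0.0485). Ror1 and Ror2 are receptor tyrosine kinases that take Wnt5a as a ligand. They differed in direction, Ror1 going from 1.60 to 0.454 TPM and Ror2 from 4.94 to 6.95 TPM, and both calls held after GC and length correction. Ror1 was below 1 TPM in all libraries labelled Ad-shJP2 and entered the test only through the other groups, in which it was higher. Ryk, a further Wnt coreceptor, fell from 101.5 to 55.4 TPM.

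The dishevelled and destruction complex list was divided, with 5 higher and 9 lower of 16, against 21.8% higher and 37.7% lower of all genes. After GC and length correction 5 were higher and 7 lower, where 28.7% of 14025 genes were higher and 27.3% lower. Its median log2 difference went from -0.64 to -0.17. Axin1, the scaffold of the complex, rose from 18.4 to 24.8 TPM, and Gsk3a, Csnk1d, Dvl1 and Dvl2 rose as well (log2 differences 0.22 to 0.33). The dishevelled genes, whose products relay the signal from frizzled receptors, were divided, since Dvl3 fell from 21.1 to 10.1 TPM (log2 difference -0.998, limma adjusted p = 9.3e-06). Csnk1a1, the kinase that primes beta-catenin for degradation, fell from 141 to 66.5 TPM. Tnks2 fell 2.87-fold and Csnk1g3 2.88-fold, Tnks2 being one of the tankyrases that mark axin for degradation. Gsk3b was called lower (15.8 to 10.1 TPM, log2 difference -0.59), but its difference was 0.12 after the joint correction for GC content and length, and the transcript has a GC content of 41.3% and a length of 4883 bases.

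Targets and the planar polarity branch mostly fell, 6 of 8 and 6 of 6 tested genes being lower and 0 higher. After GC and length correction 5 and 4 were lower and 1 target higher, and with either of the other scalings 4 and 5 were lower. Ccn4, a secreted matricellular protein also named WISP1, went from 60.02 to 9.18 TPM (log2 difference -2.58, SE 0.04, limma adjusted p = 4.2e-10). Ccnd1, the G1 cyclin, fell from 241 to 148 TPM and the Wnt antagonist Nkd2 from 34.4 to 25.1, whereas its paralog Nkd1 did not pass (-0.02, adjusted p = 0.888). Myc and Cd44 were called lower by 0.10 and 0.09 on the log2 scale, both stood slightly above 0 with median-of-ratios scaling, and Cd44 was called higher after GC and length correction (0.34). Daam1, a formin of the planar polarity branch, fell 4.03-fold and Dact1 3.50-fold. Of the nuclear factors 8 of 12 were lower, such as the beta-catenin cofactor Bcl9l (39.8 to 20.1 TPM) and Tcf7l1 (25.0 to 20.7 TPM), and 5 were lower with quantile normalization or median-of-ratios scaling. Extracellular inhibitors had 3 lower and Tpbg higher (5.38 to 8.63 TPM) of 6, with 1 lower after GC and length correction and 2 with either scaling. Over all genes 37.7% were lower and 21.8% higher.

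Between Ad-JP2 and Ad-GFP, 15 of the 67 were higher and 0 lower (22.4% higher, against 13.4% of all genes). After correction 11 were higher and 7 lower, where 6.48% of 14025 genes were higher and 7.78% lower. Of the 67, 26 had library values that did not overlap, and of all genes 32.2%. Tnks rose 2.12-fold, Lrp6 2.17-fold, the acetyltransferase gene Ep300 2.20-fold, Daam1 2.05-fold and Gsk3b 1.75-fold, with limma adjusted p of 1.7e-05 to 2.1e-04. Gsk3b lost its call after GC and length correction (0.23, adjusted p = 0.052) and the other 4 kept theirs. Ccn4 rose from 60.02 to 96.0 TPM (log2 difference 0.67, adjusted p = 8.3e-06; 0.32 after correction). Against Ad-shJP2, 44 were higher and 7 lower with Ad-JP2 (40.3% of all genes higher and 24.1% lower). These counts were 33 and 15 after GC and length correction, where 29% of 14025 genes were higher and 33.2% lower. They were 40 and 10 with median-of-ratios scaling and 35 and 14 with quantile normalization. Ccn4 was 10.5-fold, Daam1 8.27-fold, Tnks 5.99-fold, Lrp6 5.36-fold and Csnk1g3 4.49-fold higher. Tpbg, Axin1, Gsk3a, Ror2 and Dvl1 were lower there, by 0.25 to 0.64 on the log2 scale.

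**Figure D4:**
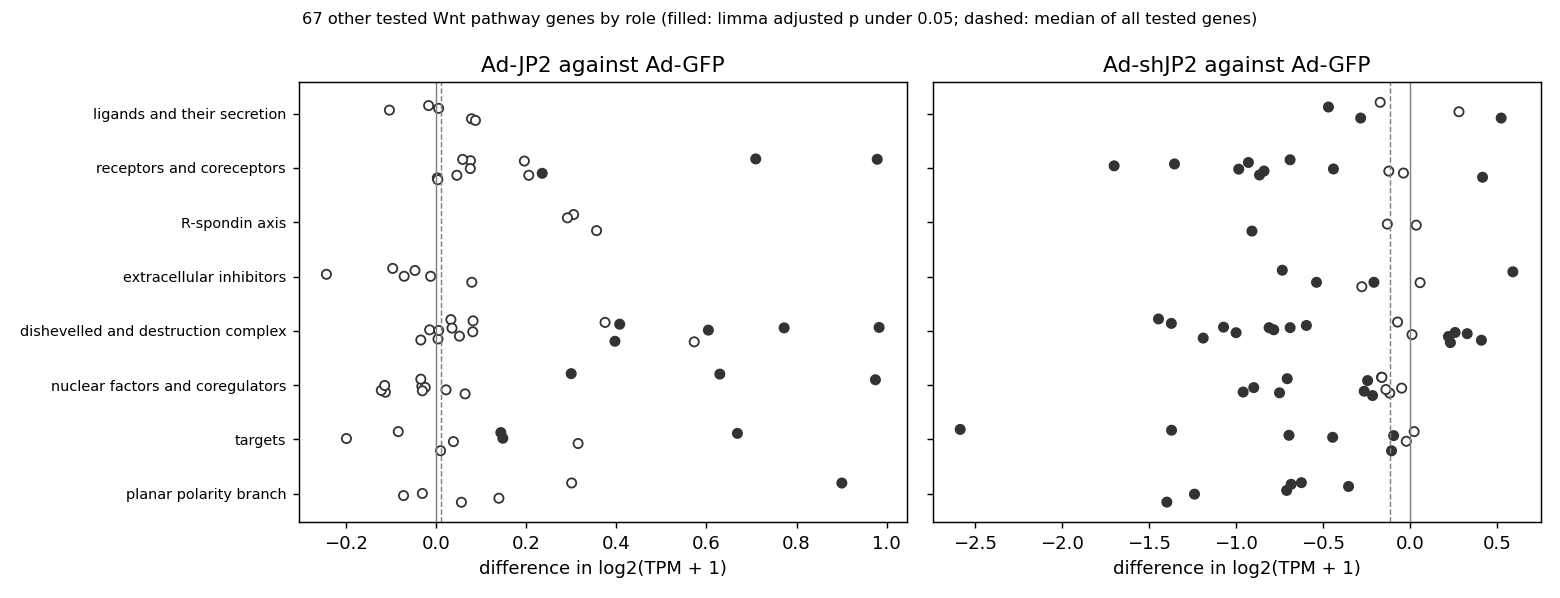
Difference in log2(TPM + 1) from Ad-GFP for the 67 other Wnt pathway genes tested, by role, with Ad-JP2 (left) and Ad-shJP2 (right), with 1 point per gene, filled where the adjusted p is under 0.05. With Ad-JP2 the 15 filled points all lie above 0, and with Ad-shJP2 43 filled points lie below 0 and 8 above, the lowest being Ccn4 at -2.58.

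The genes whose pair of differences from Ad-GFP (Ad-JP2 and Ad-shJP2) lay closest to that of each of the 8 genes were sought among 8638 genes with a mean of at least 5 TPM, over 9 libraries in 3 groups. Nearest to Ctnnb1 were Ebna1bp2 and Emc7, and nearest to Sfrp1 were Ston1 and Rtn1 (distances of 0.019 and 0.022 on the log2 scale). Psmc6 and Eif3e lay nearest to Wnt5a, Tpp1 and Zbtb14 to Fzd1, and Ganab and Ski to Fzd2. For Tcf7l2 they were Lrpprc and Ly86, for Dkk3 Gpd1l and Tubb2a, and for Sfrp2 Ptpn9 and Micu2. None of these 16 genes was on the Wnt lists, but with only 67 other Wnt genes tested that was likely from the start. Since this scale understates the change of low genes, Sfrp2 and its nearest genes (mean 50.7 and 40.6 TPM) differ in fold ratio.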

How the data were processed

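Polyadenylated RNA was sequenced in 9 libraries made with the TruSeq Stranded mRNA kit, per the labels' protocols. The authors deposited TPM per gene, with gene length and effective length as other values in bases, per the file headers. DRAGEN, Salmon, DESeq2 and GRCm39 appear in the submitters' processing notes, without versions or roles.

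Here log2(TPM + 1) of 14215 genes with at least 1 TPM in at least 3 libraries was fitted with limma 3.58.1 in R 4.3.3 (1 model of 3 group means, mean-variance trend, two-sided, Benjamini-Hochberg over all genes, calls at adjusted p under 0.05). The model was tested on simulated data with known changes, independent noise per gene and no shift with GC content. That test therefore does not cover such shifts in these data. An exact permutation test of 3 against 3 cannot go below p = 0.1.

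GC content came from GENCODE vM21 transcripts (GRCm38) matched by gene ID, for 14025 of the 14215 genes, and was corrected per library together with length by splines of 5 degrees of freedom. Read depth was estimated from the steps of low TPM multiplied by effective length. No label ties that length to a library, and it matched Ad-GFP replicate 3 best. There 95.7% of low values lay within 0.1 of a whole read, against 43.7% to 62.6% in the other libraries. Alternatives were other pseudocounts, filters, scalings, models and leaving out each library.

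The 10 genes, the lists and the tests were chosen with earlier results of these data known. The 10 genes are described in every comparison. Of the other Wnt genes, the rule named the 5 largest rises and falls per comparison among those called with a mean of at least 2 TPM and no overlap, and genes whose role bears on one of the 10 (dishevelled genes, Lrp5, Lrp6, Gsk3b, Axin1, Tcf7l1, Frzb and expressed ligands). Ryk, Ror1, Fzd4, Fzd5, Csnk1a1, Bcl9l, Ccnd1, Nkd1, Nkd2, Myc, Cd44 and Dact1, and the GC and CCAAT boxes, were chosen after their values were seen.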

Additional observations from a re-analysis of the deposited data

How the results depend on the processing

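Directions in Ad-shJP2 against Ad-GFP and in Ad-JP2 against Ad-shJP2 did not change for any of the 8 genes under any alternative run, and Sfrp1, Fzd1, Fzd2 and Ctnnb1 kept their calls in both. Under the filter at 5 TPM, where Tcf7l2, Dkk3 and Sfrp2 are not tested, 5 of the genes were called in each of these comparisons. In Ad-JP2 against Ad-GFP the number called was 0 with a pseudocount of 0.1 TPM, no filter, median-of-ratios scaling, quantile normalization, GC and length correction (also with the replicate block) and a fit of only the 2 groups compared, and 2 with the replicate block, which added Wnt5a (0.38, adjusted p = 0.0473). Differences there changed sign for Sfrp2 (-0.111), Fzd1 (-0.035) and Fzd2 (-0.015) with quantile normalization, and for Sfrp1 (-0.0236), Fzd1 (-0.0266) and Fzd2 (-0.0548) with GC and length correction, with or without the block.

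Other Wnt genes lower in Ad-JP2 against Ad-GFP were 1 with quantile normalization, 7 with GC and length correction and 4 with that and the block, where 9 were higher. In Ad-JP2 against Ad-shJP2, 14 were lower with quantile normalization and 15 with the correction, with or without the block. Leaving out each library gave 0 to 1 of the 8 called in Ad-JP2 against Ad-GFP and moved the differences from -0.201 to 0.275 for Sfrp2, -0.0421 to 0.1 for Fzd2 and -0.0634 to 0.0119 for Ctnnb1. Replicate numbers did not pair the libraries (correlations of deviations -0.11 to 0.11, 1 of 9 same-numbered pairs above 0.1, 1 of 9 libraries closest to its own number). With the replicate block 1929, 8226 and 9009 genes were called in Ad-JP2 against Ad-GFP, Ad-shJP2 against Ad-GFP and Ad-JP2 against Ad-shJP2, where 2135, 8446 and 9152 were without it, and Sfrp2 lost its call in Ad-shJP2 (adjusted p = 0.0814). Causes of these changes were not tested. Lef1 and Axin2 were below 1 TPM in every library, and the part of depth in this was not tested.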
